A study of Mus musculus with 17 samples.

Results

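The 39 genes described here are RNAs of macrophages that were measured in mouse fibroblast cultures on the way to induced pluripotent stem cells (iPSC). They were taken by name from a table of 38734 genes, F4/80 under its older symbol Emr1, and all 39 were found. They fall into 8 groups by role: the lineage receptor and regulator (2 genes), lysosome and lysozyme (6), complement (4), Fc receptors and their signalling adaptors (6), scavenger and pattern receptors (5), surface antigens and integrins (7), oxidase, actin and killing proteins (5), and secreted and lipid mediators (4).

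RNA was sequenced in 17 libraries, with 1 library per genotype at each stage. Wild-type cells (WT) were labelled miR-203 WT; OSKM, knockout cells (KO) miR-203 KO; OSKM, and knock-in cells (KI) ColA1_miR203; Rosa26rtTA; OSKM. By these labels all carried a doxycycline-inducible cassette for the reprogramming factors Oct4, Sox2, Klf4 and cMyc (OSKM). No library is labelled as coming from cells without it, and in KI cells doxycycline also induced miR-203. The stages were mouse embryonic fibroblasts (MEF), days 0, 4, 6 and 7 of reprogramming with 1 µg/ml doxycycline, and iPSC from WT and KO cells. The labels give the doxycycline treatment of 2 weeks for every library, MEF included, and state neither sex nor the embryos or cultures behind a library. Libraries of 1 genotype may therefore share a culture, and no group has a replicate.

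Macrophages are phagocytes that enter embryonic tissues early and are found among the cells released when an embryo is dissociated for fibroblast culture. They depend on the CSF1 receptor and the transcription factor PU.1. They recognise opsonised particles through Fc and complement receptors, take up debris through scavenger receptors, digest it in lysosomes and secrete the C1q proteins that start the classical complement pathway. In RNA from a whole culture, fewer macrophages and less RNA per macrophage cannot be told apart.

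The genes lie on 16 chromosomes, and the 3 C1q genes are direct neighbours on chromosome 4. To show sequence that the genes share beyond the rule that chose them, their promoter windows were searched for GAGGAA, the core of the purine-rich element bound by PU.1, on both strands (TTCCTC on the reverse strand). RefSeq windows on GRCm38.p6, from 250 bases before to 50 bases after the start, were found for 29 of the 39 genes. The motif was in a window of 21 of these 29 genes (72.4%), against 31.3% of the 27025 genes with a window, and 7 of the 29 held at least 2 matches, as 5.6% of all genes with a window did. A match is a description of these letters and not evidence of binding. The 4 windows below are of Mrc1, with 3 matches, C1qc and Laptm5, with 1 each, and Lyz2, which has the highest level of the 39 and no match. The windows are at chr2:14229164-14229463, plus strand, at chr4:136892865-136893164, minus strand, at chr4:130913066-130913365, plus strand, and at chr10:117282223-117282522, minus strand, and capitals mark the motif.
Mrc1: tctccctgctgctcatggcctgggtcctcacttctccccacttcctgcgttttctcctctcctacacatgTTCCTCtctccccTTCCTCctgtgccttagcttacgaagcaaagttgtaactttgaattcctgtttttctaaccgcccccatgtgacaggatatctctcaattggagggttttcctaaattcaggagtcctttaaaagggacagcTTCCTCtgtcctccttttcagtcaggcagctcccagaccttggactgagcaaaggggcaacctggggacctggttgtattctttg
C1qc: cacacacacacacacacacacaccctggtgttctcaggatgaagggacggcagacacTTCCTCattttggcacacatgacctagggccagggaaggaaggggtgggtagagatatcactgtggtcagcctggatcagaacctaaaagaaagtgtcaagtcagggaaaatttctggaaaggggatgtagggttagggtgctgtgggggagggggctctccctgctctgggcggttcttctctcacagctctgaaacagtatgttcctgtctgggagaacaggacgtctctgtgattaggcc
Laptm5: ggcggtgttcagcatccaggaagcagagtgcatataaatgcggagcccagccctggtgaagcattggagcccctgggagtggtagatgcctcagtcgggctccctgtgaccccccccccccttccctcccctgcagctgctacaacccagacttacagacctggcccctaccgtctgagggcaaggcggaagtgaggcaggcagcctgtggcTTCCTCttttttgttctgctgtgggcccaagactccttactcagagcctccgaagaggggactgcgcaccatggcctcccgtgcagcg
Lyz2: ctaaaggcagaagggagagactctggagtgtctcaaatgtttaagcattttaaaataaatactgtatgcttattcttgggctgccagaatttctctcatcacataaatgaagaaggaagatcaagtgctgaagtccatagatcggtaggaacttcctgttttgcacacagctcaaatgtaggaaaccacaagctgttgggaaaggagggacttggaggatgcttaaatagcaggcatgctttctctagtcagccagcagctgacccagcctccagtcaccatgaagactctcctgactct

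The genotypes differ in miR-203, whose mature strand is printed from RefSeq (GRCm38.p6, chr12:112130927-112130948, plus strand) with its seed, bases 2 to 8, in capitals.
mmu-miR-203-3p: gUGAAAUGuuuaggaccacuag
The match to this seed, CATTTCA, was found for 2 of the 39 genes when the longest 3′ untranslated region of each was read, Ctss and Ptprc, which is 5.1%, against 18% of the 11980 genes searched. The regions of the 39 ran from 108 bases for Coro1a to 2965 for Cybb. Longer regions hold more room for a match and lengths were not matched, so these shares do not show a lack of sites. Ctss encodes the lysosomal protease cathepsin S and Ptprc the leukocyte antigen CD45. Their late KI minus WT differences (log2) were -0.29 (SE 0.36, adjusted p = 0.62) for Ctss and -0.31 (SE 0.42, adjusted p = 0.66) for Ptprc by the limma fit described below, and neither was called.

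Mir203 was listed at 0 FPKM in every WT and KO library, so these values do not check the deletion, and at 185 to 7903 in the KI libraries. Pou5f1, the gene of Oct4, stayed at or below 0.96 FPKM in the 5 KI libraries, while it reached 37.4 to 266 at days 4 to 7 in WT and 255 to 954 in KO. Sox2 stayed at or below 0.223 FPKM in the KI libraries. At days 4 to 7 it was at 2.26 to 19 in WT and 29.1 to 37.9 in KO. KI thus differed from WT in the RNA of these factors as well as in miR-203. The part of this in the KI and WT differences below was not tested. Xist, the RNA of the inactive X chromosome, reached 46.9 FPKM in the WT library of MEF and 48 in that of day 4, and lay at or below 3.23 in the other 15 libraries. The Y-linked gene Ddx3y was at 0.0179 and 2.74 in the same WT libraries, at 1.51 in WT iPSC and at 14.5 to 20 in the other 14. The WT libraries therefore differ among themselves in sex-linked RNA, and the counts from the fit that use WT MEF and WT day 4 are also given without them. Between 12330 and 13626 genes reached 1 FPKM in a library. The read depth is unknown, so no interval for counting error is given.

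The macrophage genes were low in the early cultures, far higher in WT and KI from day 4, and low in KO up to day 7. Their FPKM (fragments per kilobase of transcript, scaled to the reads of the library) summed to 376 in WT MEF and 396 at WT day 0, then to 2453, 5337 and 6031 at days 4, 6 and 7. In KI the sum was 248 in MEF and 395 at day 0, then 3186, 3156 and 3227 at days 4, 6 and 7. In KO it was 132 in MEF, 63.5 at day 0 and 92.4, 131 and 213 at days 4, 6 and 7. The WT sum was thus higher at each later day, the KI sum was level from day 4, and no KO library before iPSC reached the lowest WT or KI library. Lyz2 and Apoe weigh heavily in these sums. Without them the KI sum was 1853, 1232 and 1271 at days 4, 6 and 7, so it was lower after day 4. The WT sum without them was 1445, 2744 and 2865 on those days. The 39 genes made up 1.07% of all FPKM in WT day 7, 0.632% in KI day 7 and 0.0335% in KO day 7.

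**Figure D1:**
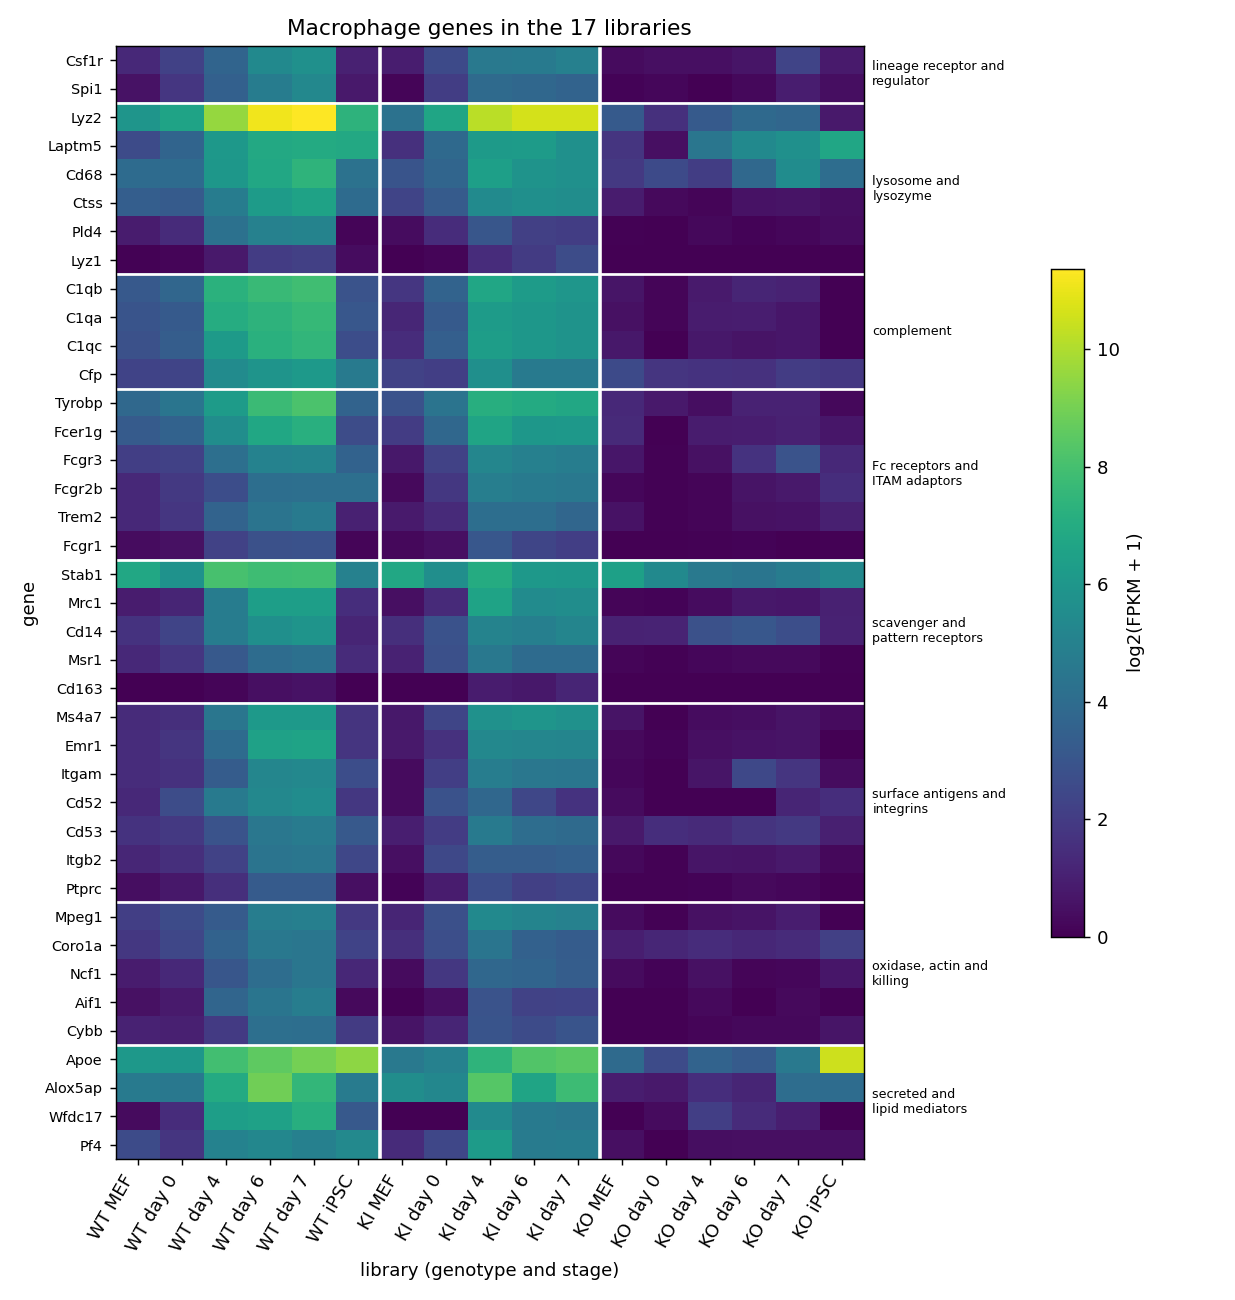
Levels of the 39 macrophage genes, as log2(FPKM + 1), in the 17 libraries (columns, by genotype and stage, 1 library each), with rows grouped by role. The WT and KI columns of days 4 to 7 are bright for most genes, the KO columns stay dark except for Laptm5, Apoe, Cd68, Stab1 and a few others, and Lyz2 reaches 2649 FPKM at WT day 7.

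Differences were tested with limma on log2(FPKM + 1) over the 15 libraries before iPSC, with the 13837 genes whose mean was at least 1 FPKM. Early means MEF and day 0, late means days 4, 6 and 7, and calls were made below an adjusted p of 0.05 (Benjamini-Hochberg over all genes). The stages of a phase stand in for replicates, so the error is the variation of genotype differences between stages and not between cultures. Of the 39 genes 38 passed the filter. Cd163, the haemoglobin scavenger receptor, did not, with at most 1.25 FPKM (KI day 7). In KO alone the mean of 25 of the 39 lay below that filter, so most genes entered through the WT and KI libraries and the counts below describe them without being support. Values on this scale understate changes of genes near 0.

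From the early to the late stages 38 of the 38 genes tested rose in WT, against 17.1% of all genes tested, with a median difference of 3.08 (log2) beside -0.02 for all genes. In KI 35 rose, against 14.7%, with a median of 2.87 beside -0.17. In KO 3 rose, against 12.9%, with a median of 0.29 beside 0.15: Laptm5, Cd14 and Wfdc17. The scavenger receptor gene Stab1 fell in KO, where 7.94% of all genes fell. The KI genes outside the call were Stab1, Cd52 and Alox5ap, with differences of 0.12 (SE 0.22, adjusted p = 0.71), 1.03 (SE 0.77, adjusted p = 0.32) and 2.18 (SE 0.86, adjusted p = 0.076). With 1 early library left out the other is assumed to vary like the rest. The WT count was then 25 without WT MEF and 23 without WT day 0, the KI count was 21 without KI MEF, and the KO count was 1 without KO day 0. Without the WT libraries of MEF and day 4, 33 rose in WT, 35 in KI and 3 in KO.

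The timing within a genotype was followed in pairs of single libraries, where a gene counts as past the rule with a difference of at least 1 on the log2(FPKM + 1) scale and at least 5 FPKM in 1 of the pair. Such pairs have no replicate and no test. Between MEF and day 0 of WT, 2 of 14 genes at that level were higher, Laptm5 and Cd52, against 2.27% of all genes. In KI 12 of 17 were higher at day 0, against 2.7%. In KO the 3 genes that reached that level, Lyz2, Stab1 and Apoe, were each lower at day 0, against 2.88%. From day 0 to day 4, 31 of 33 genes were higher in WT, against 16.7%, and 35 of 37 in KI, against 12.5%. In KO 4 of 5 were higher, against 10.9%, namely Lyz2, Laptm5, Cd14 and Apoe.

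After day 4 the courses of WT and KI parted. From day 4 to day 7, 24 of 37 genes were higher in WT, against 7.84% of all genes. The median ratio of the day 7 to the day 4 level was 2.45, from 0.88 for Stab1 to 6.59 for Emr1, beside 0.898 for all genes. That ratio rests on the WT day 4 library, whose sex-linked RNA stands apart. From day 6 to day 7, without it, the median ratio in WT was 1.14, with 33 of 38 genes higher at day 7, where 51% of all genes were higher. In KI the median ratio of day 7 to day 4 was 0.735, beside 0.909 for all genes. There 5 of 38 genes were lower past the rule, against 3.74%: Pld4, Mrc1, Cd52, Coro1a and Pf4. Lyz1 and Apoe were higher in KI day 7 than in KI day 4, at 5.3 against 1.7 FPKM and 355 against 166 FPKM. In KO 4 of 8 genes were higher at day 7 than at day 4, against 11.4%: Cd68, Laptm5, Fcgr3 and Alox5ap.

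The receptor and regulator of the lineage rose late in WT and KI. Csf1r, the receptor for CSF1 and interleukin 34, stood in WT at 1.45 FPKM in MEF, 3.66 at day 0 and 11.6, 41.3 and 51.1 at days 4, 6 and 7, with 1.05 in iPSC. KI levels of Csf1r were 0.886 in MEF, 4.86 at day 0 and 23.5, 24.6 and 29.9 at days 4, 6 and 7. KO levels of Csf1r were 0.251 in MEF, 0.393 at day 0 and 0.38, 0.581 and 4.01 at days 4, 6 and 7, with 0.795 in iPSC. The KO day 7 library was the one KO library above 1 FPKM, and it lay below every late WT and KI library, whose ranges overlapped. At the late stages Csf1r was lower in KO than in WT, with a KO minus WT difference of -3.77 (SE 0.43, adjusted p = 0.0033) on the log2(FPKM + 1) scale.

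Spi1, which encodes PU.1, stood in WT at 0.492 FPKM in MEF, 2.48 at day 0 and 10.1, 26.4 and 38.1 at days 4, 6 and 7, with 0.712 in iPSC. KI levels of Spi1 were 0.121 in MEF, 3.21 at day 0 and 14.1, 12.8 and 11.4 at days 4, 6 and 7. KO levels of Spi1 were 0.0796 in MEF, 0.162 at day 0 and 0, 0.178 and 0.866 at days 4, 6 and 7, with 0.324 in iPSC. No KO library reached 1 FPKM, every late WT and KI library lay above all KO libraries, and the late KI libraries lay within the lower end of the late WT range. The late difference between KO and WT was -4.13 (SE 0.42, adjusted p = 0.0025).

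The ligands of the receptor did not follow it. Csf1 was in WT at 135 FPKM in MEF, 261 at day 0 and 38.8, 62.2 and 56.4 at days 4, 6 and 7, with 15.3 in iPSC, and in KO at 107 in MEF, 213 at day 0 and 64.7, 52.8 and 47.8 at days 4, 6 and 7, with 8.11 in iPSC. It fell from the early to the late stages in WT by 1.85 on the log2 scale (SE 0.21, adjusted p = 0.00047), and its late KO and WT levels differed by 0.08 (SE 0.18, adjusted p = 0.77). Il34 was at 1.93 in MEF, 4.04 at day 0 and 8.2, 20.4 and 24.7 at days 4, 6 and 7, with 3.35 in iPSC in KO and did not pass 4.93 in a WT library before iPSC. Its late level was higher in KO than in WT by 1.65 (log2, SE 0.32, adjusted p = 0.019), the opposite order to its receptor.

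**Figure D2:**
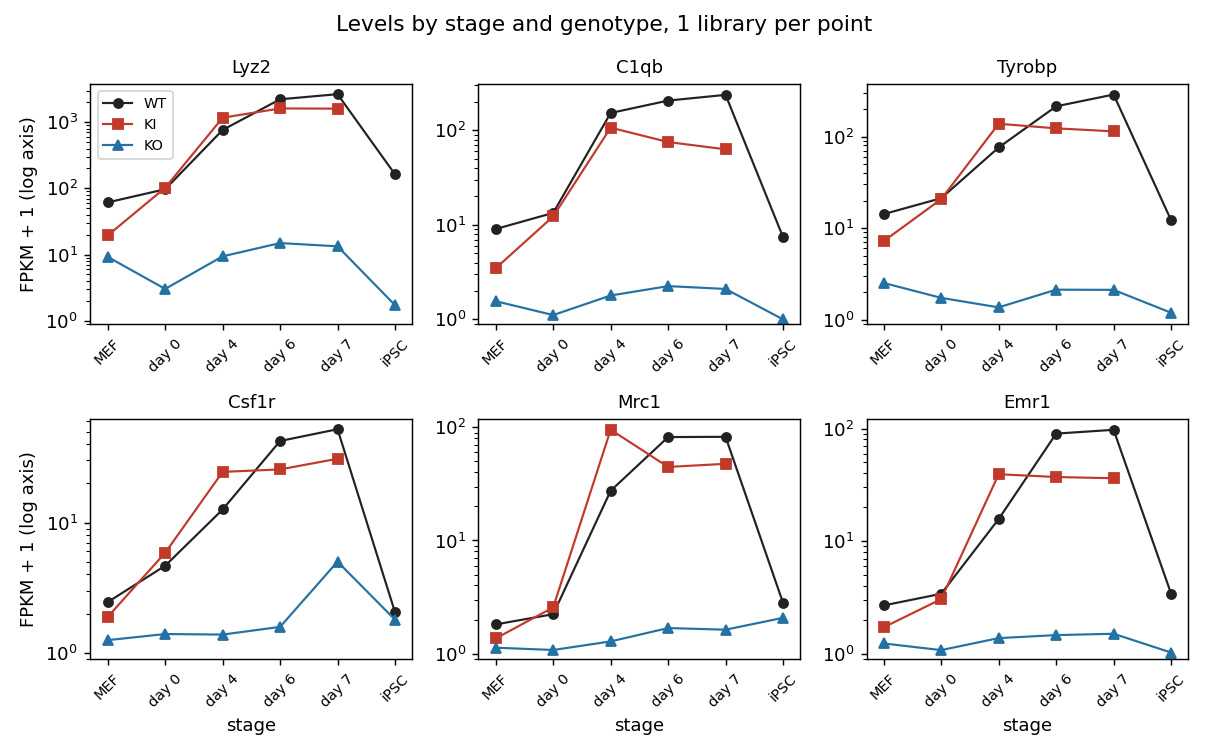
FPKM + 1 on a log axis against stage for Lyz2, C1qb, Tyrobp, Csf1r, Mrc1 and Emr1, with 1 library per point and lines joining the libraries of 1 genotype. In each panel WT and KI rise between day 0 and day 4, KO stays near the bottom, and KI lies above WT at day 4 for each gene but C1qb.

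Lysosome and lysozyme genes held the highest single level. Lyz2, which encodes the lysozyme of phagocytes, was in WT at 60.3 FPKM in MEF, 96 at day 0 and 762, 2218 and 2649 at days 4, 6 and 7, with 162 in iPSC. KI levels of Lyz2 were 18.4 in MEF, 101 at day 0 and 1167, 1612 and 1601 at days 4, 6 and 7. KO levels of Lyz2 were 8.21 in MEF, 2.02 at day 0 and 8.39, 13.9 and 12.3 at days 4, 6 and 7, with 0.718 in iPSC. Every late WT and KI library lay far above every KO library, whose highest value was 13.9, and the late difference between KO and WT was -7.07 (SE 0.63, adjusted p = 0.0014). Lyz1, the adjacent and near-identical lysozyme of the gut, reached 5.3 FPKM at KI day 7 and was listed at 0 in every KO library. Reads from the copies may be assigned to either, so the split between Lyz1 and Lyz2 is uncertain, and no fold is given for Lyz1 against KO.

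Laptm5, a lysosomal membrane protein of blood cells, was the exception in KO. In WT it was at 5.14 FPKM in MEF, 11.6 at day 0 and 66.5, 116 and 123 at days 4, 6 and 7, with 114 in iPSC. KI levels of Laptm5 were 1.97 in MEF, 14 at day 0 and 72.5, 74.6 and 50.8 at days 4, 6 and 7. KO levels of Laptm5 were 2.37 in MEF, 0.369 at day 0 and 21.2, 41 and 51.2 at days 4, 6 and 7, with 106 in iPSC. It rose in KO by 4.09 (SE 0.67, adjusted p = 0.0043) between the phases, and its late KO libraries reached into the late KI range although they stayed below the late WT range. It was the one tested gene whose late level was not called lower in KO than in WT, with -1.44 (SE 0.60, adjusted p = 0.13), nor than in KI, with -0.86 (SE 0.60, adjusted p = 0.27).

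Cd68, a heavily glycosylated lysosomal protein used as a macrophage stain, was in WT at 14.8 FPKM in MEF, 14.7 at day 0 and 63.1, 111 and 165 at days 4, 6 and 7, with 18.4 in iPSC. KI levels of Cd68 were 6.7 in MEF, 12.2 at day 0 and 83.8, 56.3 and 50.8 at days 4, 6 and 7. KO levels of Cd68 were 2.69 in MEF, 4.89 at day 0 and 3.23, 13.2 and 44.6 at days 4, 6 and 7, with 15.8 in iPSC. The KO day 7 value came close to the KI value of the same day but stayed below every late WT and KI library. Its late KO minus WT difference was -2.92 (SE 0.61, adjusted p = 0.023). The protease gene Ctss was at 26 to 94.1 in late WT, at 42.9 to 49.8 in late KI and never above 0.801 in KO. Pld4, a lysosomal nuclease, was at 18.1 to 32.9 in late WT, 3.15 to 7.31 in late KI and at most 0.291 in KO, with no overlap between the 3 genotypes.

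Complement genes showed the widest gap between WT and KO, with a median late difference of -6.40 over the 4 genes. C1qb, a chain of C1q, was in WT at 8.05 FPKM in MEF, 12.4 at day 0 and 152, 206 and 237 at days 4, 6 and 7, with 6.43 in iPSC. KI levels of C1qb were 2.48 in MEF, 11.3 at day 0 and 106, 74.4 and 62.1 at days 4, 6 and 7. KO levels of C1qb were 0.558 in MEF, 0.111 at day 0 and 0.79, 1.25 and 1.1 at days 4, 6 and 7, with 0 in iPSC. The late WT libraries lay above all late KI libraries, and the late KI libraries above all KO libraries. The late KO minus WT difference was -6.59 (SE 0.40, adjusted p = 0.00057), and the KI minus WT difference was -1.30 (SE 0.40, adjusted p = 0.12), which was not called.

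C1qa, the A chain, was in WT at 6.69 FPKM in MEF, 8.32 at day 0 and 131, 164 and 195 at days 4, 6 and 7, with 7.58 in iPSC. KI levels of C1qa were 1.3 in MEF, 8.35 at day 0 and 74.6, 64.3 and 55.5 at days 4, 6 and 7. KO levels of C1qa were 0.444 in MEF, 0.109 at day 0 and 0.841, 0.907 and 0.636 at days 4, 6 and 7, with 0 in iPSC. The late libraries were in the order WT, KI, KO without overlap. C1qc, the C chain, was in WT at 5.98 FPKM in MEF, 9.24 at day 0 and 72.3, 150 and 177 at days 4, 6 and 7, with 5.42 in iPSC. In KI, C1qc stood at 1.76 in MEF, 10 at day 0 and 78.8, 63.7 and 57.2 at days 4, 6 and 7. KO levels of C1qc were 0.658 in MEF, 0 at day 0 and 0.639, 0.534 and 0.604 at days 4, 6 and 7, with 0 in iPSC. The 3 chains were listed at 0 in KO iPSC and at 5.42 to 7.58 in WT iPSC. The late WT and KI ranges of C1qc overlapped at day 4.

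Cfp, properdin of the alternative pathway, had late values of 43.5 to 67.2 FPKM in WT and 24.2 to 49.1 in KI. KO MEF held 4.82, above the 3.82 of WT MEF and the 3.74 of KI MEF, and the later KO libraries held 2.05 to 3.08. The change between phases was lower in KO than in WT, with a KO minus WT difference of -3.90 (SE 0.48, adjusted p = 0.048).

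The Fc receptors and their adaptors rose in WT and KI in 6 of 6 genes, beside 17.1% and 14.7% of all genes, and in KO in 0 of 6, beside 12.9%, which is near the background for 6 genes. Tyrobp, the adaptor DAP12 of TREM2 and other receptors, was in WT at 13.2 FPKM in MEF, 20.2 at day 0 and 75, 213 and 287 at days 4, 6 and 7, with 11.2 in iPSC. KI levels of Tyrobp were 6.2 in MEF, 19.7 at day 0 and 137, 122 and 113 at days 4, 6 and 7. KO levels of Tyrobp were 1.51 in MEF, 0.725 at day 0 and 0.358, 1.12 and 1.11 at days 4, 6 and 7, with 0.186 in iPSC. Its late KO minus WT difference was -6.52 (SE 0.45, adjusted p = 0.00082), and the late WT and KI ranges overlapped.

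Fcer1g, the common gamma chain of Fc receptors, was in WT at 8.72 FPKM in MEF, 11.1 at day 0 and 47, 107 and 142 at days 4, 6 and 7, with 5.18 in iPSC. KI levels of Fcer1g were 3.12 in MEF, 12.8 at day 0 and 97.3, 63.7 and 65.6 at days 4, 6 and 7. KO levels of Fcer1g were 1.58 in MEF, 0 at day 0 and 0.851, 0.884 and 1.05 at days 4, 6 and 7, with 0.604 in iPSC. KI was above WT at day 4 and below it at days 6 and 7, and KO was below both. Fcgr3, a low-affinity receptor for IgG, was in WT at 3.36 FPKM in MEF, 3.57 at day 0 and 16.8, 32.4 and 33.7 at days 4, 6 and 7, with 11.1 in iPSC. In KI, Fcgr3 stood at 0.657 in MEF, 3.72 at day 0 and 36.1, 29.9 and 26.9 at days 4, 6 and 7. KO levels of Fcgr3 were 0.631 in MEF, 0.0545 at day 0 and 0.435, 2.22 and 6.49 at days 4, 6 and 7, with 1.47 in iPSC, and day 7 was the highest KO library. Fcgr2b, the inhibitory receptor of the family, had late values of 22.4 to 28.5 in KI and 5.45 to 16.7 in WT, so that KI lay above WT without overlap. Fcgr2b and Fcgr3 share near-identical stretches, and the split of reads between them is uncertain. Trem2, a lipid receptor, reached 23.7 at WT day 7 and 16.1 at KI day 4, and Fcgr1, the high-affinity receptor, 6.26 and 7.5, while both stayed below 0.5 FPKM in KO before iPSC.

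Of the scavenger and pattern receptors Stab1 behaved differently from the others. Stab1, a clearance receptor shared by macrophages and sinusoidal endothelium, was in WT at 111 FPKM in MEF, 55 at day 0 and 270, 229 and 237 at days 4, 6 and 7, with 30.9 in iPSC. KI levels of Stab1 were 113 in MEF, 48.9 at day 0 and 125, 66.5 and 64 at days 4, 6 and 7. KO levels of Stab1 were 86.3 in MEF, 41.2 at day 0 and 22.9, 20.5 and 26.4 at days 4, 6 and 7, with 39.1 in iPSC. The MEF libraries of the 3 genotypes were alike in level, the late WT libraries lay above them, the late KI libraries stayed within the early KI range or slightly above it, and the late KO libraries lay below every early library. It rose in WT by 1.63 (SE 0.22, adjusted p = 0.0011) and fell in KO, with -1.33 (SE 0.22, adjusted p = 0.0046).

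Mrc1, the mannose receptor CD206, was in WT at 0.81 FPKM in MEF, 1.23 at day 0 and 26.5, 81.1 and 81.5 at days 4, 6 and 7, with 1.81 in iPSC. KI levels of Mrc1 were 0.361 in MEF, 1.56 at day 0 and 94.4, 43.7 and 46.6 at days 4, 6 and 7. KO levels of Mrc1 were 0.127 in MEF, 0.0757 at day 0 and 0.281, 0.681 and 0.626 at days 4, 6 and 7, with 1.07 in iPSC. KI day 4 was the highest library, and no KO library before iPSC reached 1 FPKM. Cd14, the co-receptor for bacterial lipopolysaccharide, was in WT at 2.13 FPKM in MEF, 4.07 at day 0 and 26.3, 49.9 and 58.7 at days 4, 6 and 7, with 1.25 in iPSC. In KI, Cd14 stood at 1.88 in MEF, 6.37 at day 0 and 33, 28.6 and 35.5 at days 4, 6 and 7. KO levels of Cd14 were 1.13 in MEF, 1.18 at day 0 and 6.17, 7.58 and 5.63 at days 4, 6 and 7, with 1.14 in iPSC, so that the late KO libraries lay above the early ones and below every late WT and KI library. It rose in KO by 1.78 (SE 0.34, adjusted p = 0.0082). Msr1, the class A scavenger receptor, was at 8.13 to 17.5 in late WT, 14.5 to 22.5 in late KI and at most 0.228 in KO. Cd163 was at 0.115 to 0.489 in late WT, 0.675 to 1.25 in late KI and at most 0.0251 in KO.

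Among surface antigens and integrins Ms4a7, a tetraspanning protein of macrophages, was in WT at 1.6 FPKM in MEF, 1.91 at day 0 and 21.1, 67.7 and 70.7 at days 4, 6 and 7, with 2.23 in iPSC. KI levels of Ms4a7 were 0.686 in MEF, 4.2 at day 0 and 52.3, 60.3 and 52.5 at days 4, 6 and 7. KO levels of Ms4a7 were 0.53 in MEF, 0.0219 at day 0 and 0.301, 0.322 and 0.494 at days 4, 6 and 7, with 0.251 in iPSC. The KI level was flat from day 4 while in WT the ratio of day 7 to day 4 was 3.34. Emr1, which encodes F4/80, was in WT at 1.68 FPKM in MEF, 2.4 at day 0 and 14.7, 89.2 and 96.5 at days 4, 6 and 7, with 2.42 in iPSC. In KI, Emr1 stood at 0.713 in MEF, 2.05 at day 0 and 38.3, 36.1 and 35.2 at days 4, 6 and 7. KO levels of Emr1 were 0.23 in MEF, 0.074 at day 0 and 0.373, 0.46 and 0.501 at days 4, 6 and 7, with 0.022 in iPSC. It had the largest ratio of day 7 to day 4 in WT, 6.59, and a ratio of 0.918 in KI.

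Itgam, the integrin chain CD11b, was in WT at 1.71 FPKM in MEF, 2.09 at day 0 and 8.9, 36.7 and 39.2 at days 4, 6 and 7, with 5.48 in iPSC. KI levels of Itgam were 0.257 in MEF, 3.33 at day 0 and 27.6, 21.6 and 21 at days 4, 6 and 7. KO levels of Itgam were 0.155 in MEF, 0 at day 0 and 0.574, 4.57 and 2.37 at days 4, 6 and 7, with 0.302 in iPSC. The KO values of days 6 and 7 were the highest of that genotype and lay below every late WT and KI library. Its partner chain Itgb2 reached 20.9 in WT and 10.3 in KI, and Ptprc (CD45) 8.76 and 5.42, while both stayed below 1 FPKM in KO. Cd53, a tetraspanin of leukocytes, reached 25.6 in WT, 24.4 in KI and 2.67 in KO. Cd52, a small anchored glycoprotein of leukocytes, was at 23.7 to 45.4 in late WT, at 13 FPKM at KI day 4 and at 2.21 at KI day 7. Its late KI minus WT difference was -2.51 (SE 0.69, adjusted p = 0.097), which was not called.

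Of the oxidase, actin and killing genes Mpeg1, the pore-forming perforin-2, was in WT at 3.26 FPKM in MEF, 5.1 at day 0 and 8.6, 27.6 and 29.4 at days 4, 6 and 7, with 2.74 in iPSC. KI levels of Mpeg1 were 1.23 in MEF, 5.84 at day 0 and 41.4, 34.5 and 31.1 at days 4, 6 and 7. KO levels of Mpeg1 were 0.271 in MEF, 0.0323 at day 0 and 0.407, 0.52 and 0.858 at days 4, 6 and 7, with 0.014 in iPSC. The late KI libraries lay above all WT libraries. Coro1a, an actin-binding protein of leukocytes, was in WT at 2.54 FPKM in MEF, 4.4 at day 0 and 11, 22.5 and 21.4 at days 4, 6 and 7, with 3.81 in iPSC. In KI, Coro1a stood at 1.85 in MEF, 5.59 at day 0 and 20.5, 10.4 and 8.91 at days 4, 6 and 7. KO levels of Coro1a were 0.961 in MEF, 1.33 at day 0 and 1.73, 1.41 and 1.66 at days 4, 6 and 7, with 3.42 in iPSC. The WT and KI ranges overlapped, and the highest KO value was that of iPSC.

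Ncf1, the p47 subunit of the phagocyte NADPH oxidase, was in WT at 0.797 FPKM in MEF, 1.45 at day 0 and 7.12, 15.6 and 21.1 at days 4, 6 and 7, with 1.41 in iPSC. KI levels of Ncf1 were 0.245 in MEF, 2.61 at day 0 and 12.9, 11.7 and 9.23 at days 4, 6 and 7. KO levels of Ncf1 were 0.271 in MEF, 0.0858 at day 0 and 0.434, 0.13 and 0.145 at days 4, 6 and 7, with 0.615 in iPSC. Cybb, the membrane subunit of that oxidase, reached 16.6 in WT, 6.77 in KI and 0.556 in KO. Aif1, the actin-bundling protein IBA1, was at 12 to 27.6 in late WT, 3.76 to 6.52 in late KI and at most 0.224 in KO, with no overlap. Its KI minus WT difference was -1.84 (SE 0.31, adjusted p = 0.029).

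Of the secreted and lipid mediators Apoe, the apolipoprotein that macrophages secrete with cholesterol, was in WT at 66.5 FPKM in MEF, 63.7 at day 0 and 246, 375 and 517 at days 4, 6 and 7, with 691 in iPSC. KI levels of Apoe were 23.3 in MEF, 30.6 at day 0 and 166, 313 and 355 at days 4, 6 and 7. KO levels of Apoe were 14.3 in MEF, 5.05 at day 0 and 11.3, 8.48 and 22.9 at days 4, 6 and 7, with 1452 in iPSC. The iPSC libraries were the highest of WT and of KO, and KO iPSC was the highest of the 17. Before iPSC the late KO minus WT difference was -4.69 (SE 0.34, adjusted p = 0.00082).

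Alox5ap, the activator of 5-lipoxygenase in leukotriene synthesis, was in WT at 24.4 FPKM in MEF, 22.5 at day 0 and 124, 482 and 185 at days 4, 6 and 7, with 25.9 in iPSC. KI levels of Alox5ap were 47 in MEF, 37.6 at day 0 and 327, 99.9 and 222 at days 4, 6 and 7. KO levels of Alox5ap were 0.878 in MEF, 0.728 at day 0 and 1.77, 1.24 and 15.7 at days 4, 6 and 7, with 15.1 in iPSC. WT peaked at day 6 and KI at day 4 with a second rise at day 7, so that the order of the genotypes changed from day to day, and in KO day 7 stood apart from the earlier libraries. Wfdc17, a secreted protein of the whey acidic protein family, was in WT at 0.246 FPKM in MEF, 1.7 at day 0 and 82.1, 90.5 and 138 at days 4, 6 and 7, with 8.08 in iPSC. In KI, Wfdc17 stood at 0 in MEF, 0 at day 0 and 42.3, 24.8 and 22 at days 4, 6 and 7. KO levels of Wfdc17 were 0 in MEF, 0.247 at day 0 and 3.35, 1.65 and 0.933 at days 4, 6 and 7, with 0 in iPSC. Its change in WT, 5.80 (SE 0.39, adjusted p = 5.6e-05), was the largest of the 38 genes tested. Pf4, a chemokine of platelets and macrophages, was at 30.4 to 37.2 in late WT, 25.7 to 73.5 in late KI and at most 0.369 in KO.

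**Figure D3:**
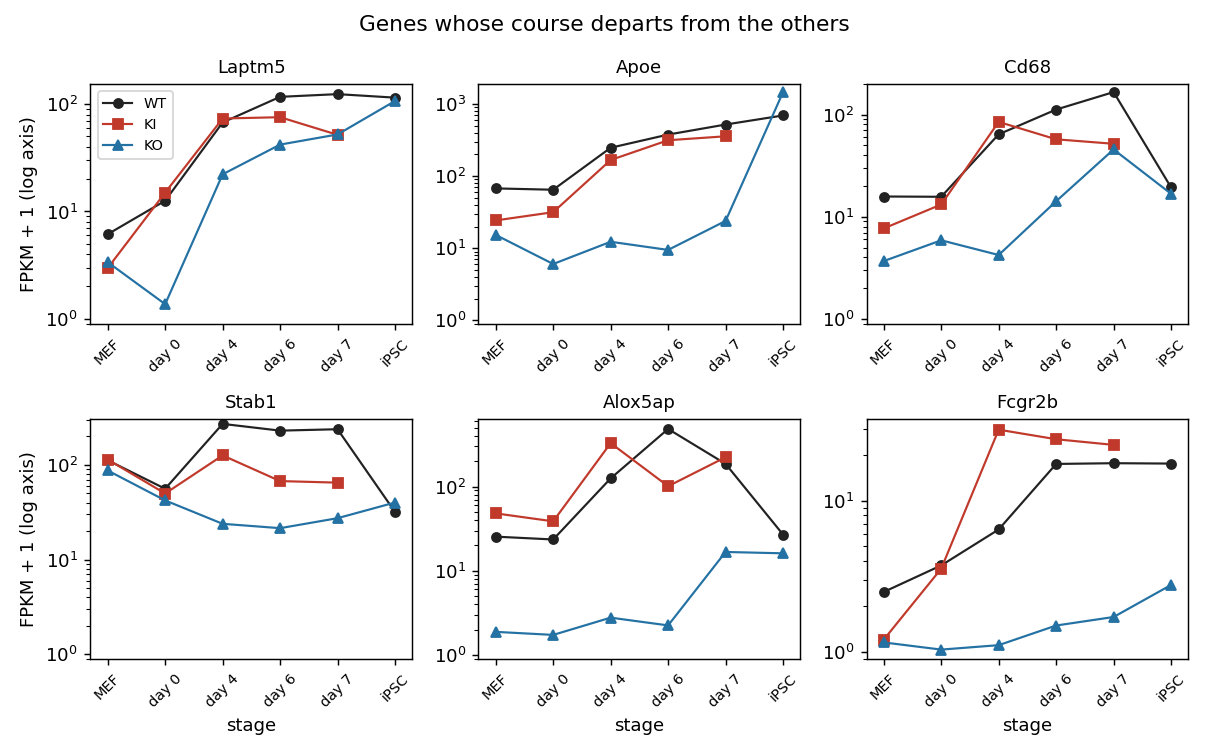
FPKM + 1 on a log axis against stage for Laptm5, Apoe, Cd68, Stab1, Alox5ap and Fcgr2b, with 1 library per point. Laptm5 and Cd68 are at 51.2 and 44.6 FPKM at KO day 7, Apoe is at 1452 FPKM in KO iPSC, Stab1 starts at 86.3 to 113 FPKM in all 3 MEF libraries, and Fcgr2b is higher in KI than in WT at each late day.

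At the late stages 37 of the 38 genes tested were lower in KO than in WT, against 5.23% of all genes, with a median difference of -3.93 beside 0.17 for all genes. The differences ran from -7.07 for Lyz2 to -1.44 for Laptm5. Against KI 37 were lower in KO, against 10.5%, with a median of -3.40 beside 0.30, and that count too was 37 without WT MEF and WT day 4. These comparisons share the KO libraries. The values behind them did not overlap: all 3 late WT libraries lay above all 3 late KO libraries for 39 of the 39 genes, as for 8.82% of all genes tested. All 3 late KI libraries lay above them for 38, with Laptm5 as the exception, as for 14.7% of all genes tested. Of the 39, 21 stayed below 1 FPKM in every KO library before iPSC, and 8 reached 5 FPKM in a late KO library: Lyz2, Cd68, Laptm5, Fcgr3, Cd14, Stab1, Apoe and Alox5ap. Without the same WT libraries the KO and WT count was again 37.

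KO was also low in MEF. In MEF the WT library was above the KO library for 8 of the 9 genes with at least 1 FPKM in both, with a median ratio of 4.65, where 51% of all genes at that level were higher in WT and the median ratio was 1, and Cfp was the exception with 0.792. That WT library is 1 of the 2 with high Xist. At day 0, where WT Xist was at 1.42, the 39 genes summed to 396 FPKM in WT and 63.5 in KO. At day 7 the ratio ranged from 2.39 for Laptm5 to 258 for Tyrobp over the 17 genes at or above 1 FPKM in both libraries. The change from early to late was lower in KO than in WT for 3 of 38 genes, against 0.0506% of all genes: Cfp, Stab1 and Wfdc17. At an unadjusted p below 0.05 it was lower for 31. The share of all genes at that unadjusted level was not counted, so the 31 cannot be read as a result. The adjusted count moved with single libraries. It was 32 without WT day 4, 21 without KO day 4 and 6 without KI day 4. It was 1 without KI MEF, KI day 0, KI day 7 or KO day 7, and 0 without KI day 6, KO MEF, KO day 0, KO day 6, WT MEF, WT day 0, WT day 6 or WT day 7. Without the WT libraries of MEF and day 4 together it was 20.

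Against WT, KI was ahead at day 4 and behind at days 6 and 7. At day 4, 14 of 37 genes were higher in KI past the rule for pairs, against 7.67% of all genes. The median KI to WT ratio was 1.83, from 0.405 for Pld4 to 5.23 for Fcgr2b. For all genes with at least 1 FPKM in both libraries it was 0.887. At day 6, 15 of 37 were lower in KI, against 4.95%, with a median ratio of 0.572 beside 0.921 for all genes. At day 7, 19 of 38 were lower, against 6.97%. The median ratio was 0.482, from 0.0487 for Cd52 to 1.54 for Lyz1, beside 0.872 for all genes. The day 4 comparison rests on the WT library whose Xist and Ddx3y levels stand apart, and the part of that library in the day 4 order was not tested. Days 6 and 7 do not use it.

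**Figure D4:**
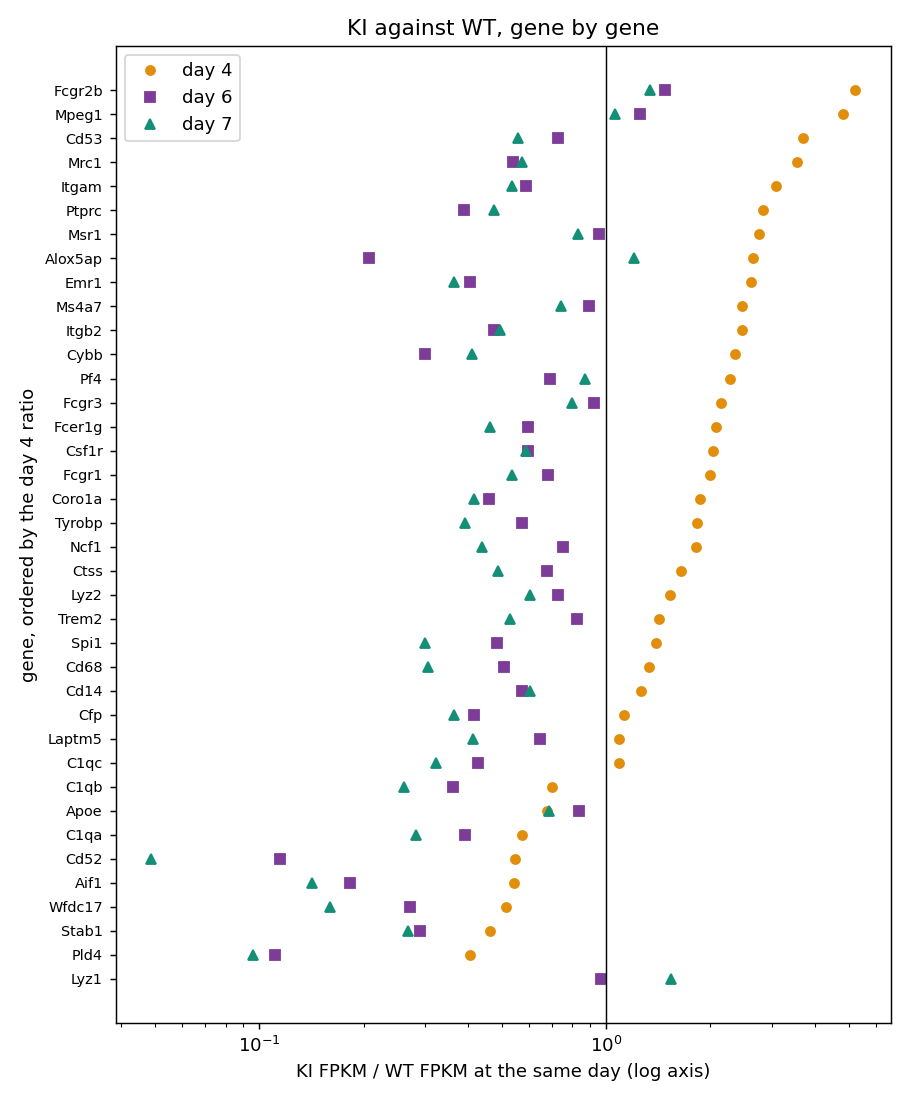
Ratio of KI to WT FPKM on a log axis for each gene with at least 1 FPKM in both libraries, at day 4 (circles), day 6 (squares) and day 7 (triangles), ordered by the day 4 ratio. Most circles lie right of 1 (29 of 37), beside 41.3% of all genes at that level. Most squares (36 of 38) and triangles (34 of 38) lie left of it, beside 63.6% and 69.6% of all genes.

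Averaged over the late stages most of these differences offset each other. The fit called 4 of 38 genes lower in KI than in WT, against 1.71% of all genes: Aif1, Pld4, Stab1 and Wfdc17, with -2.36 (SE 0.35, adjusted p = 0.022) for Pld4, -1.58 (SE 0.20, adjusted p = 0.011) for Stab1 and -1.79 (SE 0.35, adjusted p = 0.046) for Wfdc17. The median was -0.30 beside -0.16 for all genes. The count of 4 rose to 6 without WT day 4 and to 5 without KO day 4. The count was 2 without KI MEF, KI day 0, KO MEF, KO day 0 or KO day 6, 1 without WT MEF or WT day 0, and 0 without KI day 6, KI day 7, WT day 6 or WT day 7. Without the WT libraries of MEF and day 4 it was again 4. All 3 late WT libraries lay above all 3 late KI libraries for 7 of the 39 genes, Pld4, C1qa, C1qb, Stab1, Cd52, Aif1 and Wfdc17, as for 27.2% of all genes tested, so this share is not a result about the macrophage genes. All 3 late KI libraries lay above WT for 3, Fcgr2b, Cd163 and Mpeg1, as for 8.17%, which is near the background too. The early to late change was called higher in KI than in WT for 0 of the 38 by limma, against 0.0361% of all genes. It was called lower for 0, also against 0.0361%. At an unadjusted p below 0.05, 3 were lower and 1 higher, and the share of all genes at that level was not counted.

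The iPSC libraries of WT and KO differed in what was left of the module. From day 7 to iPSC, 33 of 37 genes were lower in WT, against 21.3% of all genes, and the median ratio of iPSC to day 7 was 0.0923, from 0.0205 for Csf1r to 1.34 for Apoe. WT iPSC held Lyz2 at 162 FPKM, Pf4 at 40.1, Cfp at 24.7 and Fcgr2b at 16.6, where KO iPSC held 0.718, 0.369, 2.57 and 1.77. At WT day 7 Pf4 was at 30.4 and Fcgr2b at 16.7, so these genes did not fall with most others. In KO 2 of 8 genes were higher in iPSC than at day 7, against 13.9%, namely Laptm5 and Apoe, and 4 of 8 were lower, against 20.8%, namely Lyz2, Cd68, Fcgr3 and Cd14. Laptm5 was at 114 in WT and 106 in KO iPSC, so these libraries were alike for it. WT iPSC also held more of the fibroblast RNAs Dcn (186 against 13.2 FPKM) and Col1a1 (86.2 against 20.5) and less Ddx3y (1.51 against 17.3) than KO iPSC. The part of these differences in those of the macrophage genes in iPSC was not tested.

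The genes varied together across the 17 libraries. Pearson r between a gene and the mean of the other 38 on the log2(FPKM + 1) scale was at least 0.9 for 32 of the 39, highest for Emr1 (0.986) and Ncf1 (0.985). It was lower for Cd68 (0.897), Cd14 (0.893), Cd52 (0.875), Cd163 (0.787), Stab1 (0.681), Apoe (0.663) and Laptm5 (0.632). The points share libraries and stages, so r is a description. Outside the list 87 of 14202 genes had r of at least 0.9 with the mean of the 39, and the 20 named genes with the highest r, from 0.984 to 0.969, were Clec4d, C5ar1, Ms4a6b, Lst1, Hk3, Cyth4, Lilrb4, Csf2rb, Btk, Ms4a6d, Lcp1, Nfam1, Ms4a6c, Rac2, Hpgds, Lrrc25, Il21r, Cd300a, Milr1 and Gp49a. Clec4d, a C-type lectin receptor, was in WT at 2.33 FPKM in MEF, 2.18 at day 0 and 12.7, 29.8 and 32 at days 4, 6 and 7, with 3.63 in iPSC. KI levels of Clec4d were 0.683 in MEF, 3.01 at day 0 and 31.1, 26.3 and 29.7 at days 4, 6 and 7, and in KO it was at most 0.369. Lilrb4 and Gp49a are near-identical copies whose reads may be split between them.

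Other genes of the phagocyte programme were listed by function. Of 20 tested phagocyte surface receptors 17 rose in WT, 18 in KI and 2 in KO, beside 17.1%, 14.7% and 12.9% of all genes, so that the KO count is near the background. At the late stages 18 were lower in KO than in WT, beside 5.23% of all genes, with a median of -2.40 beside 0.17. The same shares of all genes apply to the lists that follow. Genes that stayed below 1 FPKM in every KO library, such as C5ar1, Lilrb4, Ncf4, Rac2 and Lcp2, passed the filter through the WT and KI libraries. The counts of these lists therefore describe the genes without being support. The lectin receptor Clec4n differed by -4.83 (SE 0.34, adjusted p = 0.00082), the complement receptor C5ar1 by -4.51 (SE 0.50, adjusted p = 0.0033), Clec4d by -4.34 (SE 0.33, adjusted p = 0.00082) and Lilrb4 by -4.23 (SE 0.45, adjusted p = 0.0028). The fatty acid scavenger receptor Cd36 was higher in KI than in WT by 1.85 (SE 0.28, adjusted p = 0.024), at 26.1, 25.4 and 26.5 FPKM against 3.29, 9.02 and 8.7 at days 4, 6 and 7. Marco, another scavenger receptor, was lower in KI than in WT by 1.55 (log2, SE 0.27, adjusted p = 0.033). Tlr2 and Tlr4, receptors for microbial lipids, were the tested members of that list not called between KO and WT, with -0.61 (SE 0.25, adjusted p = 0.13) and -0.04 (SE 0.34, adjusted p = 0.97).

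The partners of the NADPH oxidase rose in WT and KI in 3 of 3 genes and in KO in 1 of 3, and all 3 were lower in KO than in WT at the late stages, led by Ncf4 with -3.74 (SE 0.43, adjusted p = 0.0034) and Rac2 with -3.67 (SE 0.35, adjusted p = 0.0020). Of 10 kinases and adaptors that act below the Fc receptor adaptors 6 rose in WT, 5 in KI and 1 in KO, and 7 were lower in KO than in WT, led by the adaptor Lcp2 with -3.96 (SE 0.70, adjusted p = 0.014). Of 9 tested activation products 7 rose in WT, 7 in KI and 2 in KO, and 5 were lower and 1 higher in KO than in WT. The chemokine Ccl6 differed by -6.20 (SE 0.33, adjusted p = 0.00057) and Ccl9 by -4.56 (SE 0.45, adjusted p = 0.0022), and the costimulatory ligand Cd80 was higher in KO by 1.52 (SE 0.25, adjusted p = 0.011). Arg1, the arginase of alternatively activated macrophages, was higher in KI than in WT by 2.16 (SE 0.36, adjusted p = 0.029), at 2.36, 7.83 and 13 FPKM at days 4, 6 and 7. Il1b, Nos2, Il10 and Retnla did not pass the filter on low values. Of 8 tested myeloid transcription factors 6 rose in WT, 7 in KI and 3 in KO, and 3 were lower in KO than in WT, Tfec, Irf5 and Maf, with a median of -0.92.

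Of the genes of osteoclasts, the bone-resorbing relatives of macrophages, Acp5 and Mmp9 reached far higher levels in WT than in KI at days 6 and 7. Acp5, the tartrate-resistant phosphatase, was in WT at 1.25 FPKM in MEF, 1.38 at day 0 and 3.94, 32.1 and 81.2 at days 4, 6 and 7, with 3.39 in iPSC. KI levels of Acp5 were 1.32 in MEF, 0.968 at day 0 and 2.72, 3.25 and 4.51 at days 4, 6 and 7. KO levels of Acp5 were 1.56 in MEF, 2.01 at day 0 and 3.84, 3.17 and 6.11 at days 4, 6 and 7, with 8.08 in iPSC. The highest KI library lay below WT day 6. Mmp9, a gelatinase, was in WT at 1.03 FPKM in MEF, 2.22 at day 0 and 3.41, 72.3 and 162 at days 4, 6 and 7, with 79.6 in iPSC. In KI, Mmp9 stood at 2.09 in MEF, 3.48 at day 0 and 7.25, 8.1 and 15.9 at days 4, 6 and 7. KO levels of Mmp9 were 1.47 in MEF, 0.662 at day 0 and 2.3, 4.89 and 5.95 at days 4, 6 and 7, with 2.15 in iPSC. WT days 6 and 7 lay above every KI and KO library for both genes, while at day 4 WT was not above KI for Mmp9. Of 4 tested osteoclast genes 3 rose in WT, 1 in KI and 0 in KO by limma, beside 17.1%, 14.7% and 12.9% of all genes, so that the KI and KO counts are near the background. Mmp9 alone was lower in KO than in WT, with -2.87 (SE 0.78, adjusted p = 0.046). The KI minus WT difference was -2.42 for Acp5 (SE 0.62, adjusted p = 0.084) and was not called. Ctsk, another gene of that list, parted less, at 75.7, 167 and 229 FPKM in WT and 136, 155 and 161 in KI at days 4, 6 and 7. Its KI minus WT difference by limma was 0.08 (SE 0.34, adjusted p = 0.91).

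**Figure D5:**
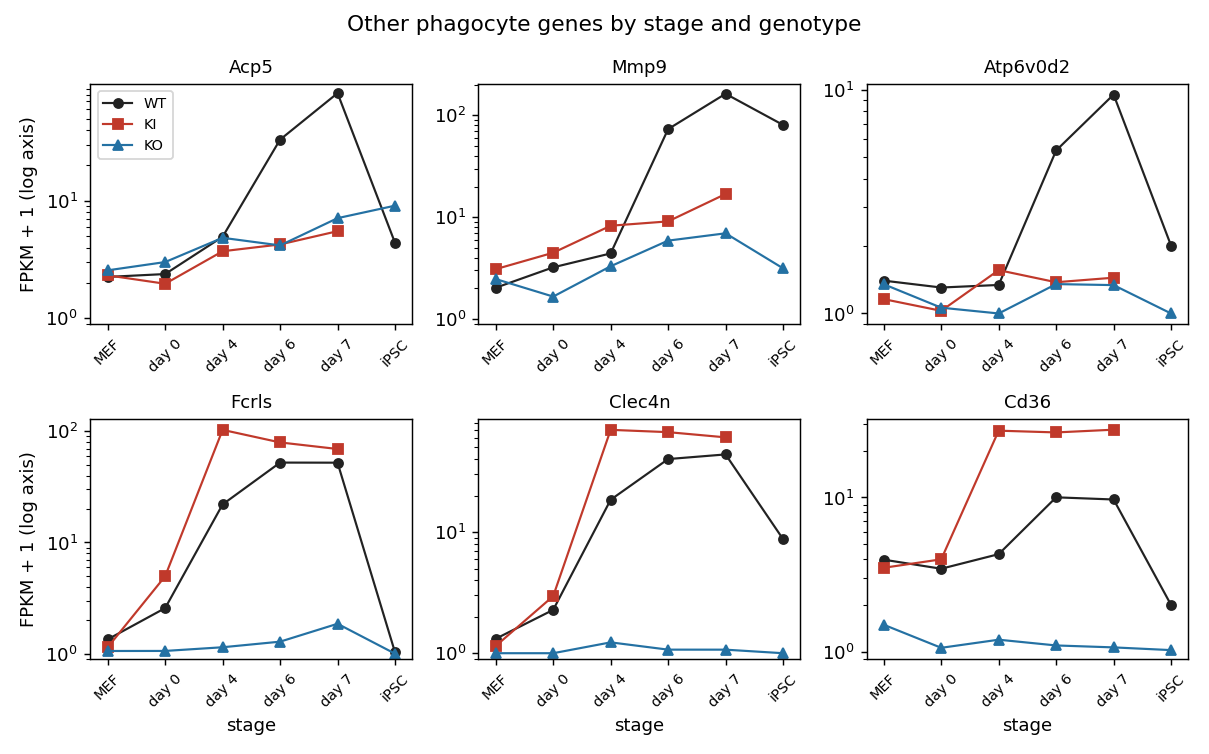
FPKM + 1 on a log axis against stage for Acp5, Mmp9, Atp6v0d2, Fcrls, Clec4n and Cd36, with 1 library per point and lines joining the libraries of 1 genotype. Acp5 and Mmp9 reach 81.2 and 162 FPKM at WT day 7, while Cd36 is higher in KI (25.4 to 26.5) than in WT (3.29 to 9.02) at each late day.

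The lysosomal enzymes that all cells use differed less. Of 14 tested 8 were lower in KO than in WT, with a median of -0.54, led by Lgmn with -1.60 (SE 0.23, adjusted p = 0.0077) and Grn with -1.29 (SE 0.14, adjusted p = 0.0033). Ctsd, the main aspartic protease of lysosomes, was in WT at 478 FPKM in MEF, 620 at day 0 and 968, 810 and 880 at days 4, 6 and 7, with 279 in iPSC. KO levels of Ctsd were 514 in MEF, 898 at day 0 and 824, 578 and 556 at days 4, 6 and 7, with 275 in iPSC, and the late values overlapped.

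Markers of most other blood cells were low before iPSC. No gene of the lists for dendritic, mast, T, B or NK cells or erythroid cells passed the filter, and their sums before iPSC were at most 2.13, 0.756, 1.77, 1.18, 0.192 and 1.22 FPKM per library. In the iPSC libraries the T cell list summed to 16.3 FPKM in WT and 12.2 in KO, led by the kinase gene Lck at 6.79 and 9.82, while the other 5 lists summed to at most 3.01. Of the neutrophil list 3 genes were tested, of which 3 rose in WT, 2 in KI and 1 in KO, and 2 were lower in KO than in WT. Mmp8, a neutrophil collagenase, was at 2.13, 9.45 and 21.5 in WT and 2.99, 5.1 and 15.7 in KI at days 4, 6 and 7, Camp, an antimicrobial peptide, reached 5.11 at WT day 7, and S100a8, a calcium-binding protein, reached 10.4 in KO iPSC. The others, Mpo, Elane, S100a9, Ngp and Ltf, stayed below 1 FPKM in the 17 libraries, and Ly6g reached 2.75. Of 7 genes of MHC class II 1, H2-DMa, was tested, and it was not called. The resident macrophage markers Timd4, Vsig4, Clec4f and Lyve1 stayed below 1 FPKM in the 17 libraries. Folr2, a folate receptor, was at 15.2, 31.1 and 40.7 in WT and 24.9, 14.3 and 16 in KI at days 4, 6 and 7. In KO it was at 0.267, 0.345 and 0.423 on those days. Gas6 of the same list was at 200, 336 and 443 in WT and 211, 125 and 86.4 in KO on those days. It was not called between KO and WT. The microglial gene Fcrls was at 21, 51.3 and 51.2 in WT, 102, 78.4 and 68.3 in KI and 0.142, 0.282 and 0.857 in KO on those days. P2ry12, another microglial gene, stayed at or below 3.44 FPKM, and Siglech at or below 0.0361. Tmem119 of that list was present in KO too, at 26.3, 19.6 and 15 at days 4, 6 and 7 against 33, 34.1 and 38.2 in WT. It was called lower in KO than in WT by limma, with -0.79 (SE 0.21, adjusted p = 0.043). Sall1 was higher in KO than in WT at days 6 and 7, at 3.8 and 8.06 against 0.251 and 0.54. Of 3 tested megakaryocyte genes 2 rose in WT, 2 in KI and 1 in KO, and 1 was lower in KO than in WT, where 5.23% of all genes were lower. Of 4 tested endothelial genes 1 was higher in KO than in WT, where 9.5% of all genes were higher, and in WT 1 rose and 2 fell. These counts are too small to set apart from the shares of all genes.

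Fibroblast RNA also differed between the genotypes. The summed level of 9 fibroblast genes was 15808 to 23080 FPKM in the late WT libraries, 22585 to 26228 in late KI and 5399 to 13352 in late KO. At the late stages 2 of the 9 were lower in KO than in WT, Col1a1 by 1.70 (log2, SE 0.33, adjusted p = 0.018) and Col1a2 by 1.54 (log2, SE 0.34, adjusted p = 0.026). The 7 pluripotency genes summed to 44.8 to 271 in late WT, 0.946 to 1.43 in late KI and 257 to 1571 in late KO. The other 7 fibroblast genes were not called, with KO minus WT differences from -1.27 for Pdgfra to 0.57 for Thy1. They did not all go one way: at day 4 Dcn was at 1321 in KO and 844 in WT and Fn1 at 623 and 237, and Thy1 was higher in KO than in WT at each late day. The part of these differences in those of the macrophage genes was not tested.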

How the data were processed

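RNA-seq values were deposited as FPKM per gene for the 17 libraries, with reads mapped and quantified by the authors. The submitters' processing notes name Cufflinks 2.2.1, TopHat2 2.0.10, SAMtools 0.1.16, Bowtie 1.0.0 and FastQC, and the builds GRCm38 and mm10. For read depth and strand handling, nothing is stated in the sources used here. FPKM is per transcript length, so levels of different genes are on one scale, and it holds no counts, so no count test was run.

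Columns were assigned by genotype and stage in the labels. The table has 38756 lines, and 41 lines that repeat 19 gene IDs were summed, which left 38734 genes. Values were put on the scale log2(FPKM + 1), and genes with a mean of at least 1 FPKM over the 15 libraries before iPSC were kept. limma 3.58.1 (R 4.3.3, trended empirical Bayes) was fitted with stage, genotype and genotype by phase terms, which left 6 residual degrees of freedom. P-values were adjusted by Benjamini-Hochberg over all 13837 genes tested. The iPSC libraries entered only the pairs of single libraries and the Pearson r over the 17 libraries, with no test. The fit was also run on values simulated from its own residual spread, with libraries independent of each other. That run checks the code, and it cannot test the calls made here, where libraries may share a culture. Tables and figures were made with Python 3.11.15, pandas 2.3.3 and matplotlib 3.10.9. Sequences were read from RefSeq tables of GRCm38.p6, and 3′ untranslated regions from GENCODE M21, by the IDs of 37428 genes.

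The macrophage genes, the other gene lists and the tests were chosen with earlier results of these data known. In each role group the 3 genes with the highest mean are given in every library. Of other lists up to 4 called genes with the largest KO and WT difference are named. Cd36, Marco, Tlr2, Tlr4, Arg1, Acp5, Ctsk, Ctsd, Cd80, P2ry12, Tmem119, Sall1, Gas6 and the low markers were named after their values were seen. The result of 1 other list is not reported here. Alternatives were another pseudocount, other filters, quantile normalization, no stage terms and leaving out libraries. The ratios of day 7 to day 6 were added after the values were seen. A library that remains alone in its phase is assumed to vary like the others.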

Additional observations from a re-analysis of the deposited data

Results flagged for a closer look

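The change from the early to the late stages differed between KO and WT for 3 of the 38 genes tested by the interaction term of the limma fit. The difference in change (KO minus WT, log2 scale) was -3.90 for the properdin gene Cfp, -2.96 for the scavenger receptor gene Stab1 and -4.46 for the secreted protein gene Wfdc17. Each rests on 2 early and 3 late libraries per genotype. The count of 3 changed with single libraries.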

How the results depend on the processing

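No difference checked gene by gene reversed its direction under the alternatives run. The check covered called differences between early and late in WT and in KO, and at the late stages for KO and for KI against WT. It also covered the called KO minus WT changes and the late KO minus WT difference of Laptm5. Other differences that were not called were not checked in this way. The late KO minus WT count was 28 to 37 with 1 library left out, and the KO minus KI count 35 to 37. Counts of genes that rose were 23 to 38 in WT, 21 to 36 in KI and 1 to 3 in KO with 1 library left out. The KI minus WT count was then 0 to 6, the count for the KO minus WT change 0 to 32 and that for the KI minus WT change 0. With a pseudocount of 0.1 the KI minus WT count was 2. The count for the KO minus WT change was 1 without a filter, 10 without stage terms, 20 without the WT libraries of MEF and day 4, and 0 without the KI libraries, a setting chosen after seeing the data. Among pairs of libraries, a minimum of 1 FPKM gave 4 genes for WT day 0 over MEF, 22 for KI day 0 over MEF, 5 for KO day 0 under MEF, 7 for KO day 7 over day 4 and 7 for KO iPSC under day 7. Quantile normalization gave 1 for WT day 0 over MEF and 2 for KI day 7 under day 4. The cause of these shifts was not tested. Of single-gene values of the 37 genes called for KO against WT at the late stages, 31 of those with 1 library left out and 6 of those under other settings no longer passed the threshold, while 522 and 248 did. No paired analysis was possible because each group has 1 library, so no replicates can be paired, and libraries are matched by stage in the fit. Read depth is unknown, so genes near 0 FPKM cannot be given a floor, and p-values measure spread between stages and not between cultures.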

Other observations

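A few of the macrophage genes stood higher at KO day 7 than at KO day 4. Cd68 was at 44.6 FPKM at KO day 7 against 3.23 at KO day 4, Fcgr3 at 6.49 against 0.435, Csf1r at 4.01 against 0.38 and Alox5ap at 15.7 against 1.77. Nos2, the inducible nitric oxide synthase, was at 4.01 in the same library and at 0.59 in WT day 7. The C1q genes and Lyz2 did not go with them, with C1qb at 1.1 FPKM at KO day 7 against 0.79 at KO day 4, and Lyz2 at 12.3 against 8.39. Tyrobp, Fcer1g, Emr1, Ms4a7 and Ctss were at or below 1.11 FPKM at KO day 7. In KO iPSC Alox5ap was at 15.1 and Cd68 at 15.8, while Fcgr3 was at 1.47 and Csf1r at 0.795. The Alox5ap level was therefore not particular to KO day 7. These are single libraries with no replicate, and no test was made.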
